A study of Drosophila melanogaster with 3 samples.

Results

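Divergent gene pairs are neighbouring genes on opposite strands that are transcribed away from each other from start sites lying close together. Here a pair was 2 gene names on arm 2L, 3L, 3R or X of Drosophila melanogaster whose minus-strand start lay 0 to 500 bp below the plus-strand start. The start sites came from the 3 deposited peak-to-feature tables, and 416 pairs of 825 genes were found among the 9656 gene names on these arms and the 12271 names in all. Divergent promoters are common in the compact fly genome, where such neighbours share one upstream stretch of open chromatin and are often housekeeping genes. The boundary protein BEAF-32 is known to bind between closely spaced head-to-head genes, and borders of chromosome domains often fall at promoters of this kind.

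The assay was 4C (circular chromosome conformation capture): cross-linked chromatin was cut with DpnII and ligated, and the DNA joined to a chosen bait was amplified by inverse PCR. All 3 samples were S2-DRSC cells, an established line of embryonic origin, called control cells with no other treatment named, and they differed in the insulator binding site used as bait. The bait region of BaitA spans 91997 to 92920 of arm 3R, that of BaitB spans 8485115 to 8485894 of arm 2L, and that of BaitC spans 384440 to 385252 of arm 3R. There was 1 tiling array per bait, with 4C product in Cy5 and cut, unligated genomic DNA in Cy3, so no value has a replicate and no test or p-value is given. Every value is a log2 ratio of 4C product over unligated DNA, averaged over the probes within 500 bp of a centre, less the array median. The log base is not stated in the files and 2 was assumed. A ratio is not a contact frequency. Coordinates are those of the deposited files, whose arm lengths are those of Drosophila Release 5, and a transcript span there says nothing of exons.

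The centre of a pair was the midpoint of its start sites. After 200 kb around each bait was left out, 404 pairs remained, 95 on 2L, 98 on 3L, 145 on 3R and 66 on X. The remaining 12 lay in the zones around the baits. Single start sites, those of genes in no pair with no start of another gene within 1000 bp, numbered 7173 outside these zones. Each pair had 14 to 19 probes in its window, with a median of 18 for pairs and for single sites alike. Genes are in the tables only where a peak of some bait was mapped to them, which held 9232 of the 10991 protein-coding genes on these arms in the Release 6 gene table. Pairs with a gene outside this set are not seen, and the other gene of such a pair can count among the single sites.

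The start sites of a pair were seldom very close. The distance between them ran from 10 to 499 bp with a median of 375.5 bp, and 178 of the 416 pairs had starts at least 400 bp apart against 32 with starts less than 200 bp apart. The closest pair was CG14854 and Jig, 10 bp apart. Only 6 genes belonged to more than 1 pair, and 6 windows overlapped the window of another pair, so nearly all pairs are separate places. Pairs lay in denser neighbourhoods than single sites: the median number of genes with a start within 10 kb was 6 for pairs (quartiles 5 and 8) and 4 for single sites (2 and 5). Their genes were shorter, with a median transcribed span of 1297 bp for pair genes and 1844 bp for genes with single sites.

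Several lists of basic cell functions, made from gene symbols, had a larger share of their genes in pairs than gene names at large. Of all gene names on the 4 arms, 8.54% were in a pair. The share was 33.3% for splicing factors (9 of 27), 31.3% for RNA polymerase II, its general factors and Mediator (15 of 48) and 21.4% for mitochondrial ribosomal proteins (12 of 56). Translation factors and tRNA synthetases had 21.1% in pairs (12 of 57), DNA replication genes 20.8% (5 of 24), respiratory chain genes 19.4% (12 of 62) and proteasome subunits 16.7% (5 of 30). Cytosolic ribosomal protein genes had 4.62% in pairs (3 of 65) and chemosensory receptor genes of the Or, Gr and Ir families 4.21% (4 of 95). No pair held any of 77 cuticle protein genes, 22 Hox and other Polycomb target genes or 16 genes of insulator proteins. In 1 pair both genes were on the same list: Taf10b and Taf10, related TFIID subunits whose starts lie 203 bp apart. In mRpL39 and Prosbeta2 a mitochondrial ribosomal protein gene was paired with a proteasome gene. These shares describe which genes of the lists are paired and were not tested. The lists do not hold every gene of a class. Tfb4 and mrn, of the general factors, and Cwc25 and Phf5a, of splicing, are in pairs but not on those lists.

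Divergent pairs carried about the same 4C signal as single start sites in all 3 arrays. Pairs averaged 0.32 ± 1.80 in the BaitA array (SD over 404 pairs), against 0.35 for single sites weighted to the same arms, a difference of -0.03. BaitB gave pairs a mean of 0.47 ± 2.01 against 0.38 for single sites, a difference of 0.09. With BaitC the mean was 0.33 ± 0.96 for pairs and 0.24 for single sites, again a difference of 0.09. Each difference is a small fraction of the spread over pairs. The numbers of pairs above the single-site median of their arm were 200, 204 and 216 of 404 in the BaitA, BaitB and BaitC arrays. The sign of the BaitA difference turned with the setting: it was 0.08 within 250 bp of the centre, 0.09 with starts up to 1000 bp apart, and 0.15 against single sites with no other gene start within 5 kb. The BaitB difference was -0.02 after the level 2 to 10 kb away was subtracted. Against the single sites with no other gene start within 5 kb, the BaitB and BaitC differences were 0.22 and 0.21. Pairs were thus higher than those isolated sites in all 3 arrays.

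**Figure D1:**
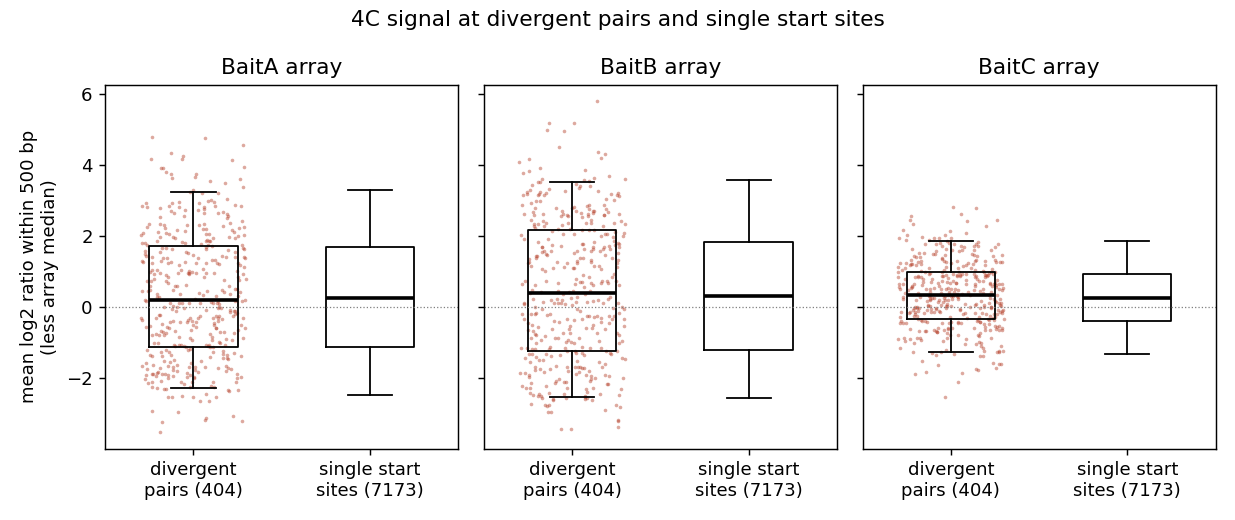
Mean log2 ratio within 500 bp (vertical axis, less the array median) at 404 divergent pairs (left in each panel, one point a pair) and 7173 single start sites (right). Boxes show quartiles and median and whiskers the 5th to 95th percentiles; the boxes of pairs and single sites cover nearly the same range in each array.

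Shares past a fixed level gave much the same picture. Those of single sites pool the 4 arms and, unlike the means above, are not weighted to the arms of pairs. So pooled, the BaitB share of single sites above 1 lay just under the interval of pairs. On each arm taken alone it lay inside that interval. With a mean log2 ratio above 1 there were 149 of 404 pairs in the BaitA array, or 36.9% (exact 95% binomial interval 32.2 to 41.8%, covering counting error only), and 36.9% of single sites. In the BaitB array 43.1% of pairs were above 1 (38.2 to 48.1%), against 37.9% of single sites. For BaitC the share was 24.0% of pairs (19.9 to 28.5%) and 22.2% of single sites. Below -1 there were 28.5% of pairs and 27.5% of single sites for BaitA. The shares were 28.5% of pairs and 28.7% of single sites for BaitB, and 8.66% of pairs and 10.3% of single sites for BaitC.

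Peaks called by the authors fell in pair windows about as often as in windows of single sites. The single-site shares again pool the arms without weighting. X holds 66 of 404 pairs but 1629 of 7173 single sites. Single sites had peaks most often on X, at 9.09, 10.4 and 7.67% for BaitA, BaitB and BaitC. The part of this in the comparison was not tested. At a false discovery rate (FDR) of at most 0.05, the window overlapped a peak at 22 pairs in the BaitA array, or 5.45% (exact 95% binomial interval 3.44 to 8.13%), against 5.88% of single sites. BaitB peaks lay in 27 pair windows, or 6.68% (4.45 to 9.57%), against 6.9% of single sites. BaitC peaks lay in 29, or 7.18% (4.86 to 10.1%), against 5.79%. The BaitC order turned when only peaks within 250 bp of the centre counted, with 2.48% of pairs and 3.82% of single sites. Since a gene enters the tables through a peak, each array was also read with pairs and single sites from the tables of the other 2 baits alone. The difference in mean log2 ratio was then -0.06 over 344 pairs for BaitA, 0.06 over 346 for BaitB and 0.11 over 358 for BaitC. The share with a peak was 4.65, 6.65 and 7.26% of these pairs and 5.47, 6.39 and 5.33% of single sites. The BaitB order thus turned.

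By arm, the level of pairs followed that of the arm. Single sites and pairs alike were high on 2L in the BaitB array, where pairs averaged 1.60 ± 2.03 and single sites 1.46 ± 2.01, and low on X in the BaitA array, where pairs averaged -0.50 ± 1.48 and single sites -0.25 ± 1.61. On 3L, an arm without a bait, pairs were the higher in all 3 arrays, by 0.10, 0.12 and 0.21 for BaitA, BaitB and BaitC. Of the 12 combinations of arm and array, 9 had the higher mean at pairs, and the differences ran from -0.24 to 0.21. Pairs on X in the BaitA array were the exception in their shares: 7 of 66 were above 1, or 10.6% (exact 95% binomial interval 4.37 to 20.6%), against 23.5% of single sites on X. Of the 12 combinations looked at, this was the only 1 with the single-site share above 1 outside the interval of pairs. The medians there were nearly equal, -0.54 for pairs and -0.55 for single sites, so fewer pairs reached the upper part of the range.

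**Figure D2:**
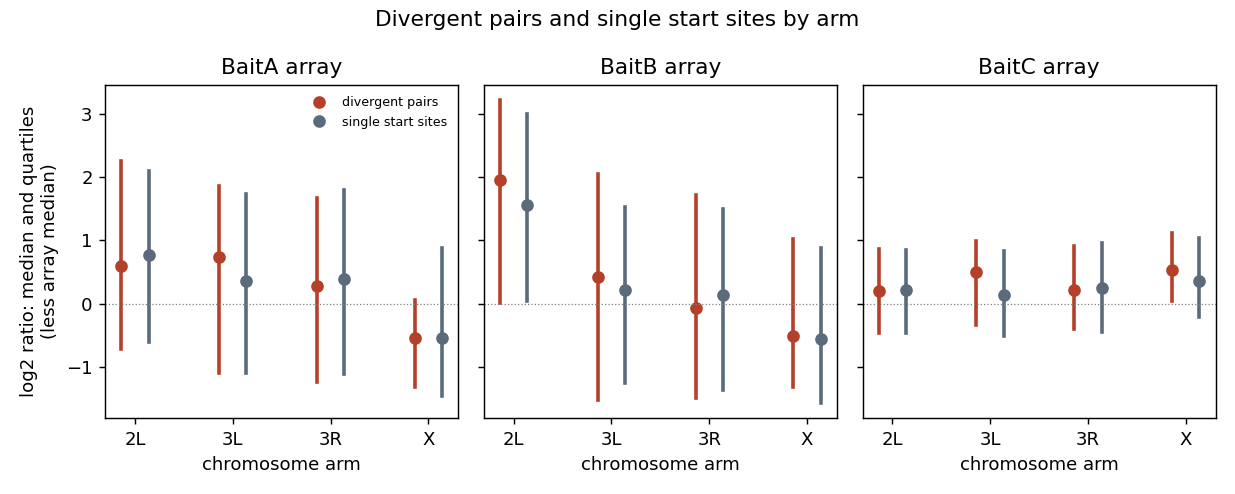
Median (point) and quartiles (bar) of the log2 ratio less the array median, for divergent pairs (left of each arm) and single start sites (right), by chromosome arm and array. Both rise on 2L in the BaitB array and fall on X in the BaitA array, and the quartile ranges overlap on every arm.

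The mean signal around the midpoint was read in steps of 250 bp. In the BaitA array, pairs averaged 0.46 in the step just below the midpoint, -0.10 between 750 and 1000 bp below it and 0.47 between 2500 and 2750 bp above it. Single sites were highest, at 0.42, between 250 and 500 bp upstream of the start. The highest step was 0.62 for pairs and 0.44 for single sites in the BaitB array, and 0.39 for pairs and 0.30 for single sites in the BaitC array. Against their own flanks 2 to 10 kb away, pairs were higher by 0.05 ± 1.80, 0.13 ± 1.91 and 0.14 ± 0.99 for BaitA, BaitB and BaitC (SD over 403 pairs). Single sites were higher than theirs by 0.18 ± 1.83, 0.14 ± 1.85 and 0.10 ± 1.00 (SD over 7069 sites). The flanks themselves were at 0.27, 0.35 and 0.20 beside pairs and at 0.12, 0.22 and 0.15 beside single sites.

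**Figure D3:**
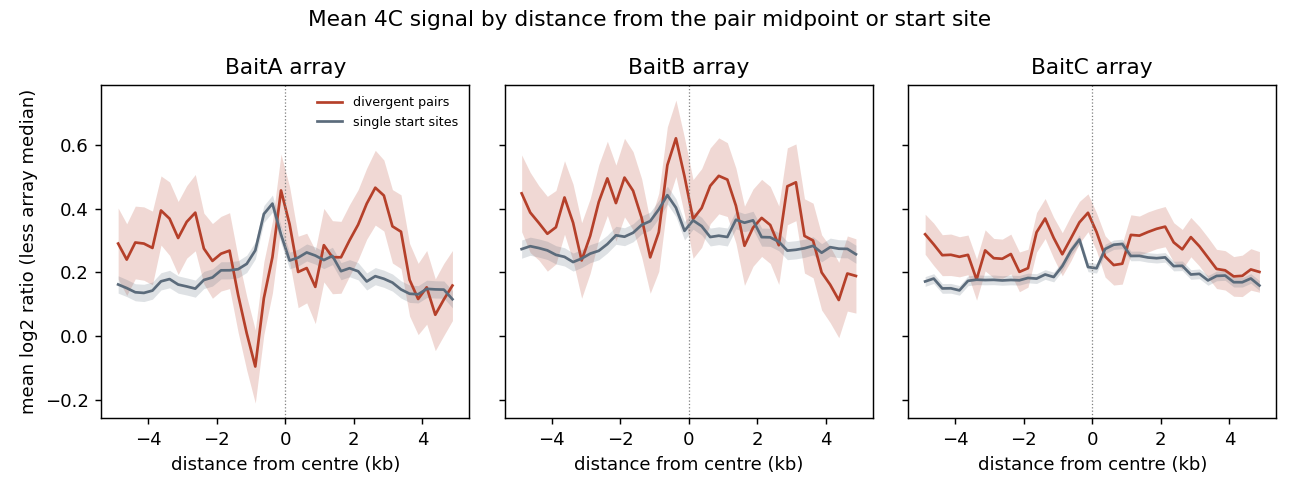
Mean log2 ratio less the array median (vertical axis) by distance from the pair midpoint or single start site (horizontal axis, kb; steps of 250 bp, single sites turned to run 5′ to 3′). Bands are the SD over sites divided by the square root of their number, and sites of one array are not replicates; the lines of pairs vary along the stretch and cross those of single sites in each array.

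The flanks differed with gene density, and so did single sites. Single sites with 1 to 3 genes starting within 10 kb averaged 0.24, 0.26 and 0.18 for BaitA, BaitB and BaitC, and those with 7 to 9 averaged 0.43, 0.54 and 0.35. Within the class of 4 to 6 genes, which held 199 pairs, pairs differed from single sites of their arm by -0.14, 0.05 and 0.03. In the class of 7 to 9 genes, with 148 pairs, the differences were -0.03, -0.02 and -0.04. The small classes differed more and in no common direction: by -0.25, -0.04 and 0.27 with 1 to 3 genes (29 pairs), and by 0.15, -0.37 and -0.05 with 10 or more (28 pairs). The part of gene density in the comparison was not tested beyond these classes.

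The start sites of a pair tended to be high or low together. Pearson's r between the 500 bp on the minus-strand side and the 500 bp on the plus-strand side of the midpoint was 0.55, 0.61 and 0.49 over 403 pairs for BaitA, BaitB and BaitC. The 2 sides of single-site windows gave 0.49, 0.53 and 0.45 over 7069 sites. These stretches adjoin and can lie on the same DpnII fragment. Farther out the sides were less alike: from 1 to 5 kb, r was 0.07, 0.32 and 0.10 for pairs and 0.15, 0.34 and 0.15 for single sites. The median size of the difference between these sides was 1.02, 1.01 and 0.59 at pairs, and 1.09, 1.06 and 0.57 at single sites, so the signal on one side of a divergent promoter stood about as far from the other as at single starts.

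The distance between the starts did not order the signal. Pairs less than 200 bp apart averaged 0.39, 1.00 and 0.43 for BaitA, BaitB and BaitC (31 pairs), and those 400 to 500 bp apart averaged 0.45, 0.59 and 0.39 (174 pairs). Pairs from 200 to under 300 bp apart were at -0.02, 0.29 and 0.32 (94 pairs) and those from 300 to under 400 bp apart at 0.37, 0.27 and 0.22 (105 pairs). Beyond the limit, 636 pairs with starts over 500 and up to 1000 bp apart averaged 0.48, 0.52 and 0.28. Just inside it, PolrMT and CG14339 (498 bp apart) gave 2.65, -1.88 and -1.04, CG34140 and Mtch (499 bp) gave -0.86, -1.75 and 0.50, and hob and nSMase (499 bp) gave 1.44, 2.93 and 1.20. Just outside it, SF2 and pad (502 bp) gave -2.05, -0.50 and 0.47, msl-3 and BBS1 (503 bp) gave 1.90, -0.54 and 1.08, and CG9393 and Vps45 (503 bp) gave 0.03, 2.76 and 0.26.

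The same pairs were raised in several arrays about as often as single sites were. Above 1 in all 3 arrays were 19 of 404 pairs (4.70%) and 4.15% of single sites, and below -1 in all 3 were 7 pairs (1.73%) and 2.51% of single sites. These single-site shares pool the arms too. With the arms pooled, the BaitA and BaitB values had a Pearson's r of 0.24 over pairs and 0.19 over single sites. On single arms their r ran from 0.04 (2L) to 0.31 (X) over pairs and from 0.13 to 0.17 over single sites. For BaitA with BaitC the pooled r was -0.03 over pairs and 0.16 over single sites, and for BaitB with BaitC 0.13 and 0.12. For BaitA and BaitC the r of pairs on single arms ran from -0.05 to 0.05 and that of single sites from 0.16 to 0.20. The labels name an unligated control for each bait. BaitB and then BaitA were hybridised to one slide and BaitC to another reused slide, per the file headers, and the part of this in the correlations was not tested.

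The pairs with the highest signal over the arrays, ranked by the mean of the values in units of the SD of single sites, are given first. The window between Tpt, which encodes a tRNA 2′-phosphotransferase, and CG13667 (3L, starts 8398297 and 8398639) was at 4.76 ± 0.47 with BaitA, 2.13 ± 2.24 with BaitB and 1.94 ± 0.46 with BaitC (SD over 18 probes). MED20, a Mediator subunit, and Trf, a relative of the TATA-binding protein (2L, starts 8072761 and 8072970), had 4.17 ± 0.79, 4.95 ± 0.64 and 0.63 ± 0.86, with a peak in both the BaitA and the BaitB array. The pair of Gas41, a subunit of a histone acetyltransferase complex, and SA1, a subunit of cohesin (2L, starts 6950116 and 6950538), had 3.28 ± 1.23, 3.68 ± 0.76 and 1.67 ± 0.96. Probes of these windows were thus evenly high in some arrays and mixed in others, such as Tpt with BaitB. The other 5 of the highest 8 were CG13126 and CG4709, CG9525 and CG32985, CG9961 and the splicing factor gene Cwc25, dind and CG7706, and Plap and CG31922, with values from 1.32 to 3.02 for BaitA, from 3.17 to 5.78 for BaitB and from 1.11 to 1.76 for BaitC. Of these 8 pairs, 6 lie on 2L, the arm of BaitB, which was raised as a whole in that array.

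By the same mean, the lowest 6 pairs were low in every array, which the ranking favours. Sems, the seminal fluid protease gene seminase, and CG10588 (3L, starts 20949829 and 20950080) had -3.24 ± 1.00, -3.38 ± 0.94 and -1.89 ± 1.11 for BaitA, BaitB and BaitC (SD over 19 probes). DCAF12, a substrate receptor of a ubiquitin ligase, and Spt3, a subunit of the SAGA coactivator (3R, starts 7842540 and 7842947), had -2.46 ± 0.92, -2.63 ± 0.92 and -1.27 ± 1.21. The pair of eIF4E6, a cap-binding protein gene, and CG1951 had -1.44, -3.18 and -1.65. CG4199 and CG32804, CG17477 and CG31269, and CG2993 and CG10928 made up the rest of the lowest 6, between -3.53 and -1.06 in all arrays. Next above these 6, the pair of CG13312 and CG32024 was the lowest of all with BaitB, at -3.46, and with BaitC, at -2.53. With BaitA that pair was at 1.29. CG4199 belongs to 3 pairs, each at a different start of that gene.

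**Figure D4:**
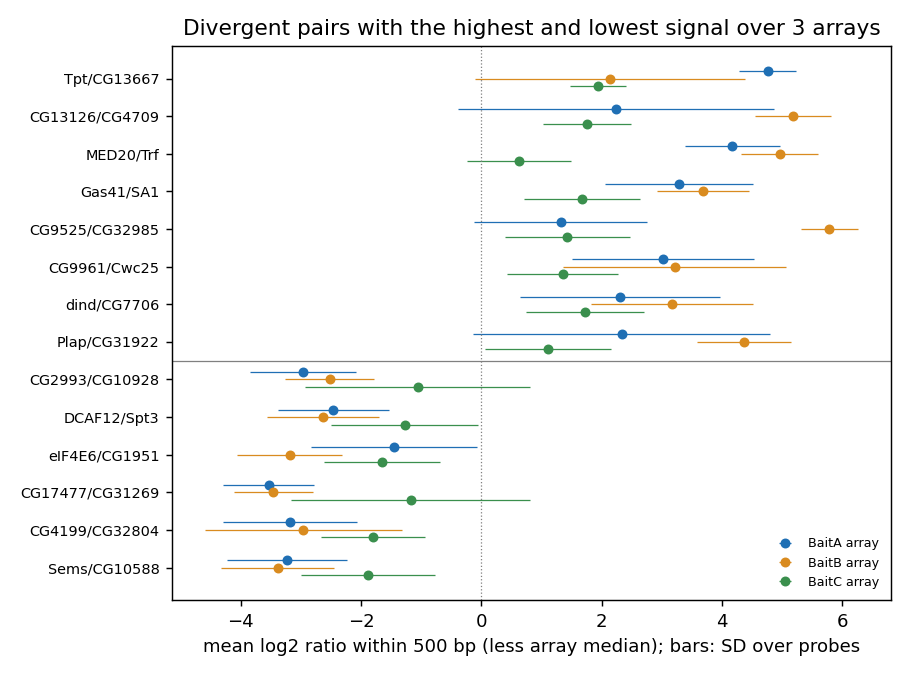
Mean log2 ratio within 500 bp less the array median (horizontal axis; bars, SD over probes) in the 3 arrays for the 8 pairs highest and the 6 lowest by the mean over arrays. All of the upper pairs are above 0 and all of the lower pairs below 0 in each array, which the ranking favours but does not fix.

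The 3 highest pairs of each array were partly those just named, and several were raised in more than 1 array. For BaitA they were Secp43 and the complex I gene ND-B8 (2L, starts 4454362 and 4454728) at 4.78 ± 1.17, against -0.12 ± 2.90 with BaitB and -0.68 ± 0.91 with BaitC, then Tpt and CG13667, and CG3117 and CG2983 at 4.55 ± 2.00, which had 1.69 with BaitB. The 3 highest for BaitB, all on 2L, were CG9525 and CG32985 at 5.78 ± 0.47, CG13126 and CG4709 at 5.18 ± 0.63, and alien, a COP9 signalosome gene, with CG18661 at 5.17 ± 0.56. The last was at -1.70 ± 0.91 with BaitA and -0.04 ± 0.76 with BaitC. For BaitC they were CG7903 and the centriole gene Sas-6 (3R, starts 25820880 and 25821088) at 2.81 ± 2.34, eIF2Balpha and Vps13B (3R, starts 25761549 and 25761895) at 2.79 ± 0.90, and CG14262 and CG14260, only 80 bp apart, at 2.62 ± 1.05. With BaitB, the Sas-6 pair was at 1.63 and the CG14262 pair at 3.18. The eIF2Balpha pair, which includes a subunit of a translation initiation exchange factor, was at -1.75 ± 0.93 with BaitA and -1.52 ± 1.96 with BaitB. No pair had peaks of all 3 baits. Peaks of 2 baits lay in the windows of 10 pairs, or 2.48%, against 1.34% of single sites on all arms together. They include mRpL44 with Snr1, a Brahma chromatin remodelling subunit, at 2.33, -2.23 and 1.77 with peaks of BaitA and BaitC, and CG7246 with the heterochromatin protein gene HP1b, at -1.03, 1.69 and 2.55 with peaks of the same 2 baits.

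Pairs of the functional lists did not move together across baits. The 12 respiratory chain pairs had a median of 1.93 in the BaitA array, with 8 above 1 and 4 below -1, where 36.9% of all pairs were above 1 and 28.5% below -1, and a range from -2.02 at Sec3 and COX7B to 4.78 at Secp43 and ND-B8. Their medians were 0.40 with BaitB and -0.32 with BaitC, and the 34 single sites of the list had 0.13, 0.78 and 0.34. The 11 translation pairs outside the zones had medians of -1.38, 2.32 and 0.60, from SerRS and CG17260 at 4.16 with BaitB to eIF4E6 and CG1951 at -3.18, and the 31 single sites of the list had -0.06, -0.06 and 0.12. The 14 pairs of general transcription genes had 0.89, -0.04 and -0.09, and the 21 single sites 1.17, 0.50 and 0.28. For the 11 mitochondrial ribosomal protein pairs the medians were 0.10, 1.16 and 0.34, and for the 5 proteasome pairs -0.33, 0.06 and 0.71. Within each of these lists single pairs lay on both sides of 0 in every array. Taf10b and Taf10 were at 1.74, -0.74 and -1.33.

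Near the baits, pairs averaged slightly more than single sites at BaitB and about 1 less at BaitA and BaitC. This rests on few pairs, and distance from the bait was not matched. The pair nearest to BaitB was CG13097 and PIG-U, a gene of GPI anchor attachment (2L, starts 8514754 and 8515152), 29.4 kb away at 8.22 ± 0.41 in the BaitB array, against 3.83 ± 0.80 with BaitA and near 0 with BaitC. Its neighbour mRpL51 and Uba4, 32.0 kb away, was at 8.30 ± 0.31, against -0.52 ± 1.81 with BaitA and 0.03 ± 0.98 with BaitC. The 8 pairs in the BaitB zone averaged 7.00 ± 1.07 (SD over pairs), and the 33 single sites from 20 to 200 kb averaged 6.75 ± 1.08. Within the BaitA zone, Skp2, an F-box gene, and CG1103 (3R, starts 163328 and 163793), 71.1 kb away, were at 6.80 ± 0.61, against -2.49 ± 0.98 with BaitB and 0.32 ± 1.58 with BaitC. The 3 pairs there, 71.1, 160.3 and 167.2 kb away, averaged 5.13 ± 1.60. The 34 single sites from 20 to 200 kb averaged 6.15 ± 1.33. The nearest to BaitC, Dlip2 and the sodium channel gene rpk, 86.7 kb away, had 2.73 ± 0.76 with BaitC and 3.02 ± 0.46 with BaitA, which lies 379.1 kb from it. Pairs of the BaitC zone, 86.7, 125.2 and 132.1 kb away, averaged 2.29 ± 0.47 (3 pairs), and single sites 3.19 ± 1.30 (35 sites). The pairs of srl with CG31525 and of eIF3a with CG1074 lie in both 3R zones, so the BaitA and BaitC comparisons share them.

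Beyond the zones and out to 10 Mb, the signal fell with distance from BaitA and BaitB at pairs and single sites alike. From 1 to 2 Mb from BaitB the 11 pairs averaged 3.23 ± 1.41 and the 238 single sites 2.47 ± 1.68, and from 5 to 10 Mb the 38 pairs averaged 1.13 ± 2.00 and the single sites 0.84 ± 1.85. Beyond 10 Mb the 11 pairs on 2L averaged 0.05 ± 1.95 and the single sites, which fell no further, 0.91 ± 1.88. On 3R in the BaitA array the 18 pairs from 2 to 5 Mb averaged 1.25 ± 2.18 and the single sites 0.97 ± 1.86, and beyond 10 Mb the 96 pairs averaged -0.05 ± 1.59 and the single sites 0.07 ± 1.79. With BaitC, single sites fell from 1.47 ± 1.10 at 0.2 to 0.5 Mb (49 sites, some in the BaitA zone) to 0.69 ± 1.23 at 0.5 to 1 Mb. They were at 0.31 ± 1.07 from 1 to 2 Mb and 0.22 ± 0.96 beyond 10 Mb. Pairs averaged -0.13 ± 1.20 from 1 to 2 Mb (4 pairs) and 0.29 ± 0.95 beyond 10 Mb (96 pairs). Between 0.2 and 0.5 Mb lay only 1 pair, in the BaitA zone, at 0.32. The 2 pairs from 0.5 to 1 Mb averaged 0.56 ± 1.72, so pairs were too few to show a fall or its absence. The nearest pairs outside the zones were CG8475 and CG8460, 288.5 kb from BaitB at 3.63, and Prosbeta2R2, a testis form of a proteasome subunit, with CG1116, at 2.07 with BaitA and -0.66 with BaitC.

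**Figure D5:**
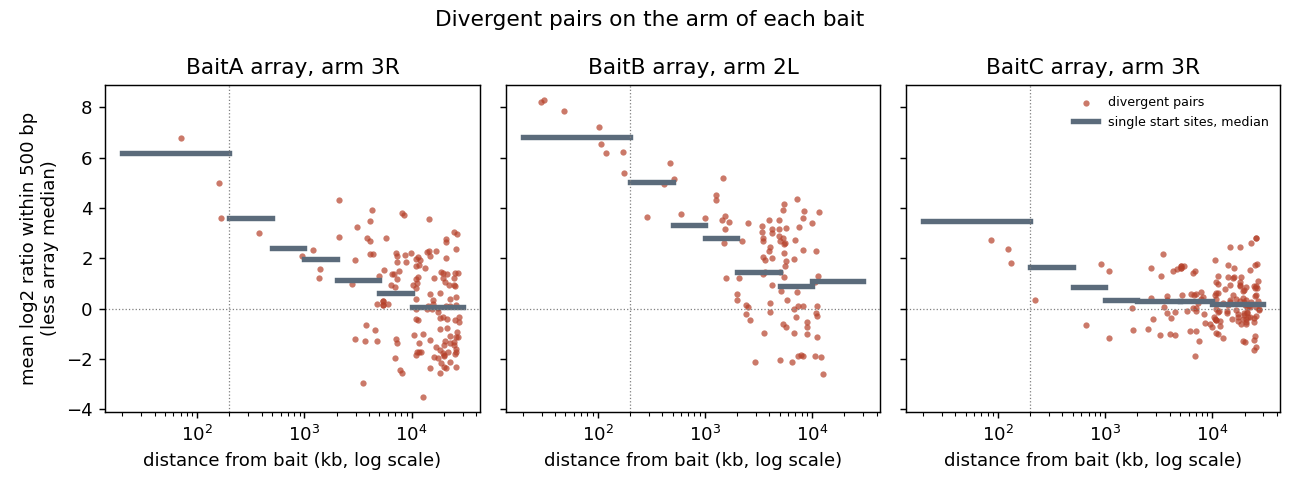
Mean log2 ratio within 500 bp less the array median (vertical axis) against distance from the bait (horizontal axis, kb, log scale) for every divergent pair on the bait arm (points), with the median of single start sites in classes of distance (horizontal bars). The dotted line marks 200 kb; the 8 pairs within it in the BaitB array are all above 5, and pairs beyond 2 Mb scatter on both sides of 0.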

How the data were processed

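The values are those of 3 NimbleGen tiling arrays with 2 channels. The authors deposited a log2 ratio for each of 2157868 probes, about 55 bp apart. Their normalization before deposit is not stated in the labels or files. Each array was centred on its median (-0.16, -0.14 and -0.02 for BaitA, BaitB and BaitC), which does not affect differences between pairs and single sites. Peak calls came from NimbleScan, array by array, per the file headers. Their deposited FDR serves as a q-value, and the tables that map peaks to genes hold peaks of FDR up to 0.198.

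Where a gene pair had several start pairs (429 in all), the closest was kept, and a single site was the 5′-most start of its gene. Windows needed 5 probes, placed by their start coordinate, and 1 single site fell short. Symbols came by accession from the Release 6 gene table for 792 of the 825 pair genes and otherwise stayed as in the files. Named pairs were the 8 highest and 6 lowest by the mean over arrays, the 3 highest in each array, those nearest the baits or the limit of 500 bp, and examples of the gene lists. The closest pair, pairs in the bait zones, extremes of lists, the pair of Taf10 genes and pairs with peaks of 2 baits were named after their values were seen. So was the pair next above the lowest 6. Members and lists were chosen with earlier results of these data known. The comparison was tested on simulated data with planted shifts. The tolerance was wider than the differences reported here, so this does not show accuracy at their size. Python 3.11.15, numpy 2.4.6 and pandas 2.3.3 were used.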

Additional observations from a re-analysis of the deposited data

How the results depend on the processing

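The difference between pairs and single sites was recomputed under 15 alternatives for each array, 1 of which, the gene set from the other baits' tables, was chosen after seeing the data. In 9, 12 and 14 of them, for BaitA, BaitB and BaitC, it moved by less than 0.1. The exceptions for BaitA were -0.15 with the local baseline, 0.077 within 250 bp, -0.13 within 1000 bp, -0.20 for starts at most 250 bp apart, 0.087 for starts at most 1000 bp apart, and 0.15 against single sites with no other gene start within 5 kb. For BaitB they were -0.020 with the local baseline, 0.19 for starts at most 250 bp apart and 0.22 against the 5 kb single sites. That last comparison gave 0.21 for BaitC, where all 15 were positive. The cause was not tested. The limit of 0.1 is larger than each difference as reported (-0.03, 0.09 and 0.09). A change of sign could thus count as unmoved, such as 0.0043 for BaitA with the median of probes. Centring on the arm median, or on arms without the bait, cannot change a difference taken within arms, so those alternatives were unmoved by construction.

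The share of pairs with a peak moved with the limit on FDR, as did that of single sites, taken over all arms together. At most 0.01 it was 0.495, 2.23 and 3.22% for BaitA, BaitB and BaitC (single sites 0.376, 2.61 and 2.80%), and at most 0.2 it was 17.8, 19.3 and 15.6% (17.1, 17.4 and 14.4%). Within 250 bp it was 3.96% for BaitB (4.24%) and 2.48% for BaitC (3.82%). The stricter overlap, set as a share of the window or peak rather than 1 bp, gave 3.22% for BaitC (4.24%). No paired analysis was possible because each bait has 1 array. The number of arrays limits the precision.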
